A study of Homo sapiens with 16 samples.

Results

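The HOX genes were examined in 4 established human bladder cancer cell lines treated with CM-1758, an inhibitor of histone deacetylases. They were taken as every row of the count table whose symbol was HOXA, HOXB, HOXC or HOXD followed by digits only, which gave 39 genes of 35993. These were 11 genes of the HOXA cluster, 10 of HOXB, 9 of HOXC and 9 of HOXD. The rule reads the symbols only. RNA came from 253J, J82, RT112 and TCCSUP cells collected 48 h after CM-1758 was added at the IC50 of each line, or after vehicle (0.01% DMSO per the labels, although the study's figure legend calls these cells untreated). The concentration therefore differed between lines, and so did the medium, which was EMEM for TCCSUP and DMEM for the other lines. Each of the 8 groups held 2 libraries described as independent biological replicates, and no allele or transgene is given for any line.

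HOX genes encode homeodomain transcription factors and lie in 4 clusters, each on its own chromosome. Genes of the same number in different clusters are paralogs. Within a cluster, low-numbered (anterior) genes lie at one end and high-numbered (posterior) genes at the other, and in the embryo the order along the chromosome follows the order of expression along the body axis. The posterior genes take part in the development of the urogenital tract and limbs, polycomb and trithorax complexes hold the clusters in silent and active states, and many HOX proteins bind DNA together with PBX and MEIS proteins.

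Total counts ran from 22506431 to 32537104 per library, of which 1838 to 6148 fell on HOX genes. Of the 39 genes, 38 passed the filter on low counts and were tested with edgeR. HOXB1, the gene that failed it, had counts only in RT112. The urothelial label fitted RT112 best, where UPK1B, KRT5, GATA3, TP63 and EPCAM were all present and the lowest of them, GATA3, was at 36.5 and 38.4 CPM in control. In 253J and J82, UPK1B, UPK2, UPK3A and KRT5 were at 0 in both control libraries, and UPK3A was at 0 in every control library. The summed level of 4 leukocyte markers was at most 4.33 CPM in the control libraries of 253J, J82 and RT112 and 20.3 and 20.9 CPM in those of TCCSUP, where it was 9.10 and 8.85 CPM after CM-1758. CD3E, a marker of T cells, was at 0 in every control library. Of the other leukocyte markers, PTPRC fell more than 4-fold in TCCSUP and CD14 rose more than 4-fold in RT112 (edgeR, adjusted p under 0.01). The summed level of 3 fibroblast markers (DCN, LUM and PDGFRA) went from 1355 and 1267 CPM in control TCCSUP to 246 and 213 CPM with CM-1758, with DCN and LUM falling, while RT112 went from 1363 and 1330 CPM to 812 and 885 CPM, J82 from 67.5 and 65.0 CPM to 139 and 123 CPM, and 253J stayed under 1.19 CPM. Although the RT112 sum was lower, 2 of its 3 fibroblast markers rose more than 4-fold and 0 fell (edgeR, adjusted p under 0.01). The 13 urothelial markers summed to 4435 and 4865 CPM in control RT112 and 3013 and 2946 CPM with CM-1758, 1457 and 2031 against 718 and 385 CPM in J82, 209 and 190 against 59.1 and 60.8 CPM in 253J, and 148 and 134 against 166 and 173 CPM in TCCSUP. By gene, 2 rose and 3 fell in RT112, 3 and 1 in J82, 4 and 2 in 253J, and 2 and 1 in TCCSUP. Of all tested genes, 34.7%, 30.7%, 39.5% and 40.9% were called in either direction in the same order. The sums thus do not give the direction of each marker. FOXA1 fell in 3 lines and rose in 0, and UPK2, UPK3A, GATA3, PPARG and KRT5 were called in no line. KRT20, a keratin of mature urothelium, was the only urothelial marker that rose in all 4 lines, against 3.98% of all tested genes. It was at 0 in both control libraries of 253J, J82 and TCCSUP and at 11.7 and 7.15, 0.358 and 0.169, and 2.70 and 5.08 CPM with CM-1758, and went from 6.47 and 6.57 to 16.04 and 18.6 CPM in RT112. The part of these marker changes in the results below was not tested. The corresponding sum of 3 endothelial markers was at most 4.94 CPM in any control library.

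In control cells the lines differed in which HOX genes they used. Levels are given as CPM, read counts scaled to the TMM-normalized library size, and between genes as CPM per kilobase of transcript, since longer transcripts collect more reads. In 253J the highest member per kilobase was HOXA9, a posterior gene, at 25.6 CPM per kb, followed by HOXB2 at 20.8 and HOXB7 at 17.6. In J82 and RT112 it was HOXB7, at 11.0 and 14.7 CPM per kb. In TCCSUP, HOXA9 at 13.1, HOXA10 at 11.3, HOXB7 at 10.8 and HOXB6 at 10.0 CPM per kb stood close together. HOXB7 was thus among the 3 highest members in each of the 4 lines.

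**Figure D1:**
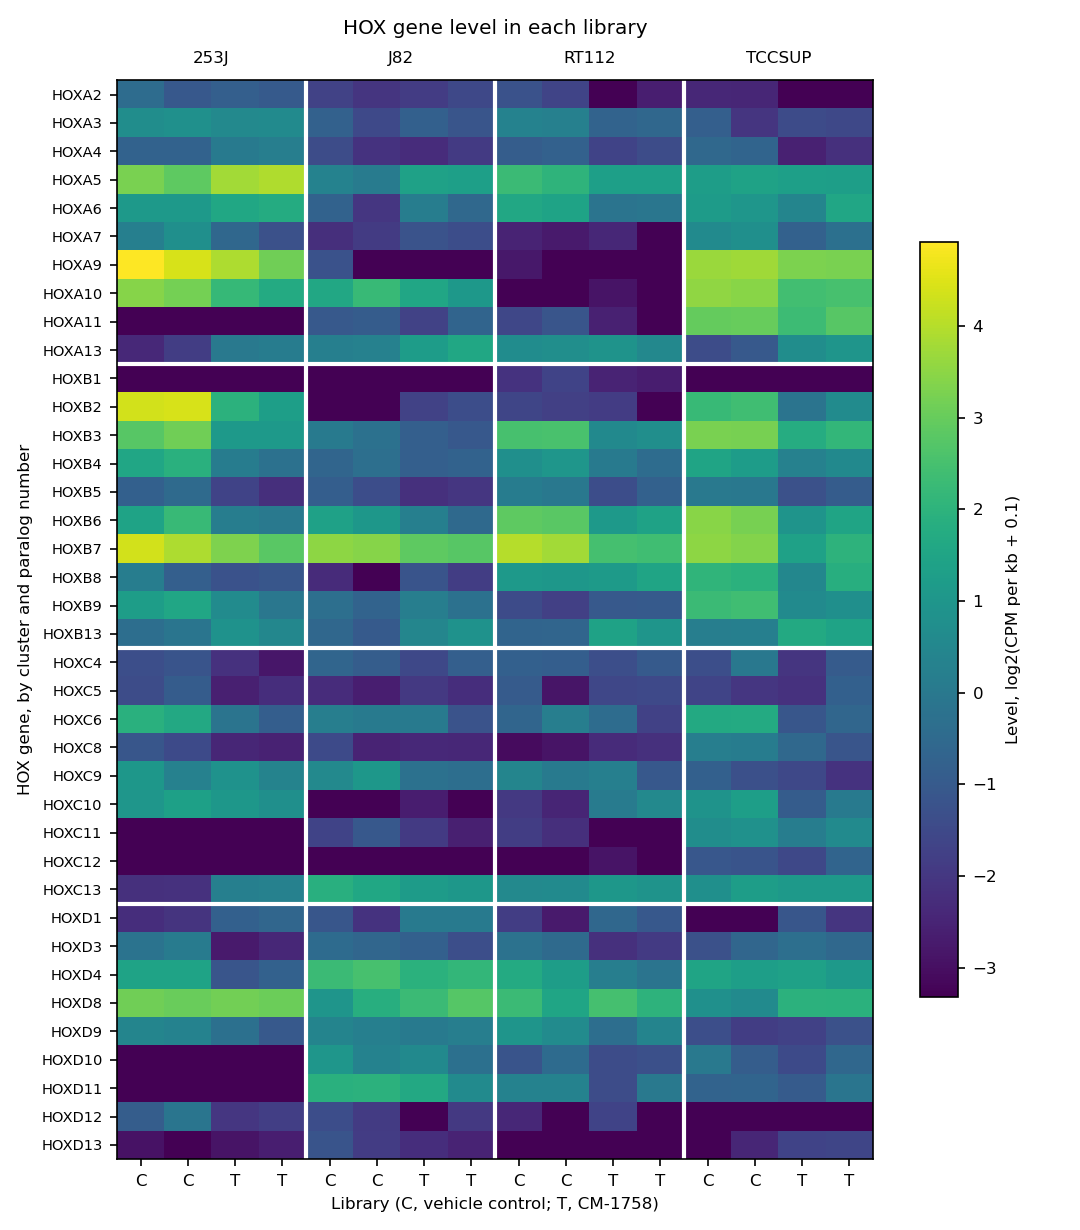
Level of 38 HOX genes in each library, as log2(CPM per kb + 0.1), with genes in rows by cluster and number and libraries in columns (C, vehicle control; T, CM-1758; 2 libraries each). HOXB7 is bright in the control libraries of every line, while HOXA11, HOXC11, HOXC12, HOXD10 and HOXD11 are dark in all 4 libraries of 253J.

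Summed over the 39 genes, the control level was 223 and 209 CPM in 253J, 193 and 191 CPM in TCCSUP, 115 and 105 CPM in RT112 and 86.5 and 84.3 CPM in J82. The 2 libraries of each line lay closer to each other than to those of any other line. An F test among the 4 control groups called 30 of the 38 tested members different between lines (edgeR quasi-likelihood test, Benjamini-Hochberg adjusted p under 0.01), or 78.9%, against 69.9% of all genes tested. Between pairs of lines, 24 members differed between J82 and TCCSUP (against 36.5% of all tested genes) and 15 between J82 and RT112 (41.9%). The other pairs were 253J with J82 at 21 (42.3%), 253J with RT112 at 18 (43.8%), 253J with TCCSUP at 18 (41.7%) and RT112 with TCCSUP at 17 (41%).

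The widest control ranges were those of HOXA9, HOXB2, HOXA10 and HOXA11. HOXA9, which acts with MEIS1 in blood progenitors, was at 42.9 and 30.3 CPM in 253J, 18.2 and 19.0 CPM in TCCSUP, 0.456 and 0 CPM in J82 and 0.0654 and 0 CPM in RT112. The lines with the gene on and those with it near 0 did not overlap (adjusted p = 2.36e-08 in the edgeR F test). HOXA10, its neighbour and a regulator of uterine development, was at 25.3 and 23.8 CPM in TCCSUP, 23.2 and 19.7 CPM in 253J, 6.38 and 10.1 CPM in J82 and 0 in both RT112 libraries. Reads of a separate row, the HOXA10-HOXA9 readthrough transcript, share exons with both genes, so their split between the 3 rows is uncertain. HOXB2, a hindbrain patterning gene, was at 31.8 and 33.3 CPM in 253J and 7.16 and 8.04 CPM in TCCSUP, against 0.360 and 0.305 CPM in RT112 and 0 in both J82 libraries.

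Several members had no reads in a whole line. In 253J, 6 members (HOXA11, HOXB1, HOXC11, HOXC12, HOXD10 and HOXD11) had 0 counts in all 4 libraries, which allows up to 3 counts, or 0.101 to 0.119 CPM, in each. The same held for HOXB1 and HOXC12 in J82, HOXB1 and HOXD12 in TCCSUP and HOXD13 in RT112. Taking at most 3 counts in both control libraries as silent, 3 members were silent in TCCSUP, 5 in J82, 7 in RT112 and 7 in 253J. With CM-1758, some of them rose above 3 counts in both libraries. The numbers were 1 of 2 tested silent members in TCCSUP (HOXD1, against 63.7% of all tested silent genes), 2 of 4 in J82 (HOXB2 and HOXB8, against 30.7%), 1 of 7 in RT112 (HOXC8, against 42.2%) and 0 of 6 in 253J (against 38%).

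The response to CM-1758 went in both directions. In 253J, 5 members rose and 11 fell (edgeR, adjusted p under 0.01), against 21.4% and 18.1% of all tested genes. In J82, 5 rose and 1 fell, against 17.4% and 13.3%. In RT112, 2 rose and 10 fell, against 20% and 14.7%. In TCCSUP, 4 rose and 9 fell, against 23.7% and 17.2%. As shares of the 38 members, 10.5% rose and 23.7% fell in TCCSUP, 5.26% and 26.3% in RT112, 13.2% and 2.63% in J82, and 13.2% and 28.9% in 253J. Counted in either direction, 16 members were called in 253J (39.5% of all genes), 6 in J82 (30.7%), 12 in RT112 (34.7%) and 13 in TCCSUP (40.9%). In these counts the share that rose was below the background in each line, and the share that fell was above it in each line except J82.

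The median log2 fold change (treated over control) of the members was -0.44 in TCCSUP, -0.76 in RT112, -0.38 in J82 and -0.69 in 253J, beside 0.20, 0.12, 0.05 and 0.10 over all tested genes. With at least 10 counts required in every library, 12 members were left and the J82 median was 0.46. The median was -0.24 in 253J without its treated replicate 3, 0 in J82 without its control replicate 1, and -0.25 in TCCSUP without its treated replicate 1. The medians were also taken without members at or below the floor of 3 counts in all libraries of the line. Members at or below it in both libraries of 1 group were set to their bound. This gave -0.44 over 37 members in TCCSUP, -0.86 over 33 in RT112, -0.42 over 36 in J82 and -1.12 over 33 in 253J. Without a test, both treated libraries lay above both control libraries for 9 members in 253J (40.9% of all tested genes), 12 in J82 (34.8%), 7 in RT112 (41.8%) and 7 in TCCSUP (45.4%). They lay below for 20 (32.1%), 16 (27.9%), 20 (32.5%) and 19 (33.1%). At a change of more than 4-fold (log2 fold change above 2 or below -2), 3 members rose and 4 fell in 253J, against 9.43% and 3.5% of all genes. The corresponding numbers were 2 and 0 in J82 (8.81% and 1.24%), 2 and 3 in RT112 (11.4% and 1.39%) and 2 and 4 in TCCSUP (14.2% and 3.31%).

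Of the 47 calls over the 4 lines, 22 held whichever library was left out. The number that fell dropped to 6 in 253J without treated replicate 3. It dropped to 6, 5 and 6 in RT112 without control replicate 1, treated replicate 1 and treated replicate 2, and to 4 in TCCSUP without treated replicate 1. The single fall in J82 was lost without control replicate 1 or treated replicate 3, and 2 fell without control replicate 3. The number that rose was 3 in 253J without control replicate 3 or treated replicate 1, 3 in J82 without control replicate 1 or treated replicate 3, 1 in RT112 without control replicate 2, and 2 in TCCSUP without control replicate 1, control replicate 2 or treated replicate 1. With library size in place of TMM, the calls on HOXA10 and HOXB4 in TCCSUP (adjusted p = 0.0307 and 0.0488 in edgeR), HOXB5 and HOXB9 in 253J (0.0169 and 0.0240) and HOXA5, HOXA6 and HOXA11 in RT112 (0.0108, 0.0102 and 0.0103) were lost. With each line fitted alone in edgeR, those on HOXA5 and HOXB6 in J82 (0.0228 and 0.0259) and HOXA11 in RT112 (0.0143) were lost. HOXB2 in J82, HOXC11 in RT112 and HOXD1 in TCCSUP had no value in those fits. With DESeq2 the call on HOXB5 in 253J was lost (0.0109).

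**Figure D2:**
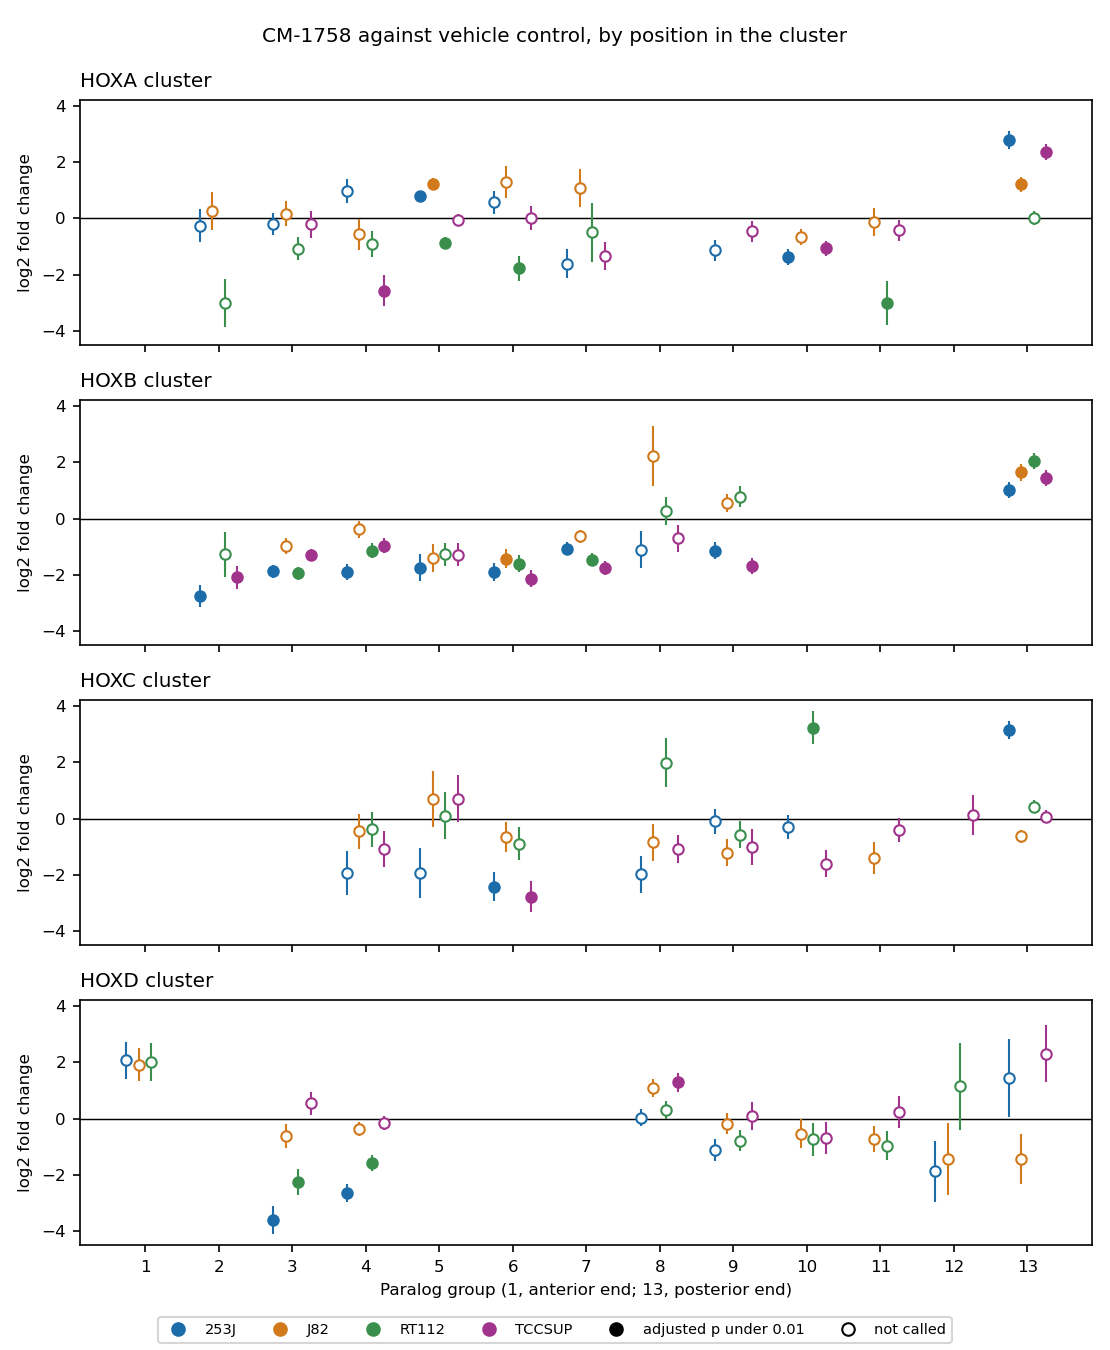
log2 fold change of CM-1758 against vehicle control (± SE, edgeR) by paralog group, 1 panel per cluster, coloured by cell line, with filled points at an adjusted p under 0.01. Genes with a group at 0 counts, and 1 gene not reported here, are left out. In HOXB, the filled points of groups 2 to 9 lie below 0 and the 4 points of HOXB13 lie above it.

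The HOXB cluster held most of the falls. Of its 9 tested genes, 6 fell in TCCSUP, 4 in RT112, 1 in J82 and 7 in 253J, while 1, 1, 2 and 1 rose. Of all tested genes 17.2%, 14.7%, 13.3% and 18.1% fell and 23.7%, 20%, 17.4% and 21.4% rose in the same order, so the HOXB share that fell was above the background in each line except J82. The median log2 fold change of the 9 was -1.29, -1.27, -0.38 and -1.74. Summed over the cluster, the level went from 96.5 and 102 CPM to 39.2 and 28.3 CPM in 253J, from 88.8 and 84.2 CPM to 33.9 and 41.9 CPM in TCCSUP, from 57.0 and 54.0 CPM to 29.5 and 27.4 CPM in RT112, and from 28.6 and 25.3 CPM to 22.4 and 21.8 CPM in J82. Treated and control libraries did not overlap in any line, and the difference was smallest in J82. The other clusters showed no such fall in every line. The HOXA sum of J82 was higher with CM-1758 (19.3 and 20.6 CPM against 29.8 and 33.3 CPM), as was the HOXD sum of TCCSUP (10.2 and 9.08 CPM against 13.6 and 13.4 CPM).

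**Figure D3:**
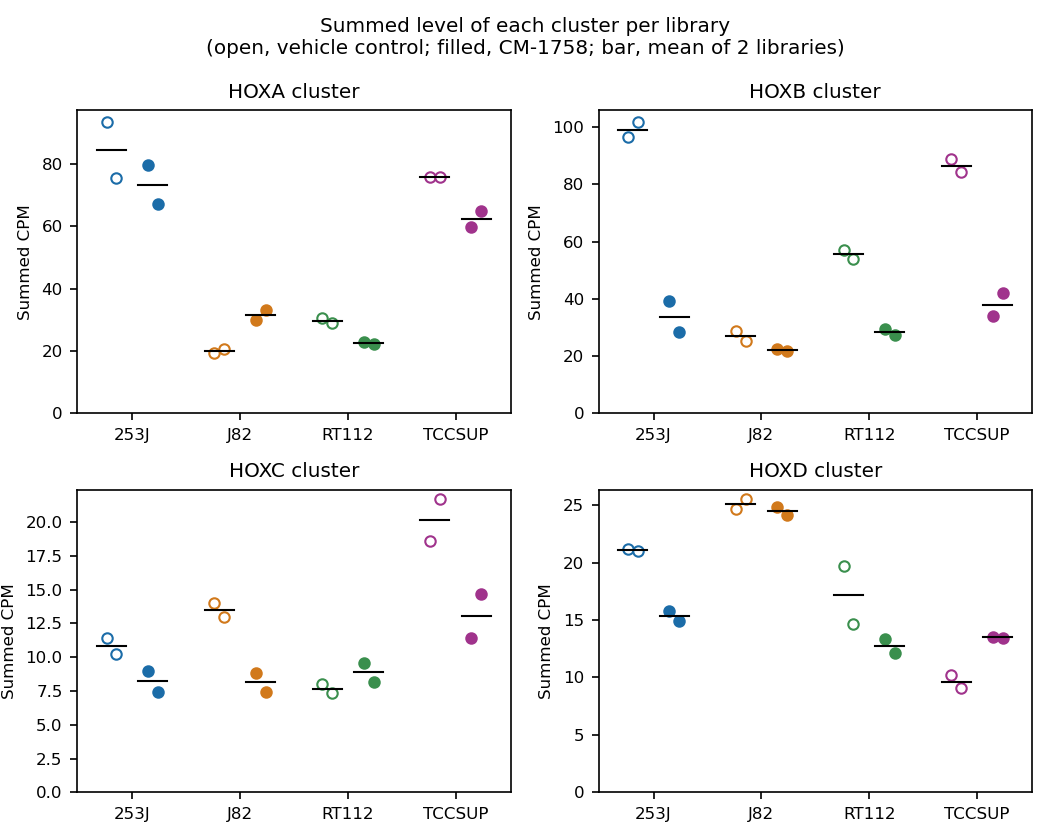
Summed CPM of each HOX cluster in each library (open, vehicle control; filled, CM-1758; bar, mean of 2 libraries), by cell line. The HOXB sums are lower with CM-1758 in all 4 lines, and the HOXA sums of J82 are higher.

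HOXB6, a central gene of the cluster, fell in all 4 lines. It was the only member to do so, against 3.69% of all tested genes. In 253J it was at 4.82 and 8.27 CPM in control and 1.86 and 1.65 CPM with CM-1758 (log2 fold change -1.90 ± 0.33 SE, adjusted p = 0.0002 in edgeR, n = 2 per group). In J82 it went from 4.56 and 3.56 CPM to 1.93 and 1.08 CPM (-1.43 ± 0.34, adjusted p = 0.00301). In RT112 it went from 13.01 and 12.5 CPM to 3.68 and 4.69 CPM (-1.61 ± 0.31), and in TCCSUP from 19.5 and 16.7 CPM to 3.33 and 4.92 CPM (-2.14 ± 0.31). Every treated library lay below both control libraries of its line. The J82 call was lost without control replicate 1 (adjusted p = 0.0205) or treated replicate 3 (0.0449) and with each line fitted alone (0.0259), and the RT112 call without treated replicate 1 (0.0101). The response of HOXB6 was not called different between lines (adjusted p = 0.513).

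HOXB3, HOXB4 and HOXB7 fell in 253J, RT112 and TCCSUP. HOXB3, an anterior gene, was at 11.3 and 14.5 CPM in control 253J and 3.57 and 3.44 CPM with CM-1758 (-1.88 ± 0.22), at 9.55 and 9.62 against 2.35 and 2.63 CPM in RT112 (-1.94 ± 0.23), and at 15.8 and 15.4 against 5.61 and 7.16 CPM in TCCSUP (-1.29 ± 0.22). In J82, at 1.60 and 1.24 against 0.788 and 0.643 CPM, its adjusted p was 0.0117. Groups did not overlap in any of the 4 lines. HOXB7, whose control level ranged over 0.68 on the log2(CPM + 0.5) scale between lines, was at 27.9 and 20.2 CPM in control 253J and 13.4 and 9.48 CPM with CM-1758 (-1.07 ± 0.22), at 21.8 and 18.4 against 7.51 and 7.09 CPM in RT112 (-1.46 ± 0.23), and at 15.5 and 14.2 against 3.44 and 5.35 CPM in TCCSUP (-1.76 ± 0.24). In J82 it was at 15.6 and 14.5 against 9.99 and 9.34 CPM (-0.64 ± 0.22, adjusted p = 0.0304). The HOXB7 call in 253J was lost without control replicate 2 or treated replicate 3 (adjusted p = 0.0189 and 0.0188).

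HOXB4, which promotes self-renewal of blood stem cells, had log2 fold changes of -1.90 in 253J, -1.15 in RT112 and -0.96 in TCCSUP. The call in RT112 was lost without control replicate 2 (adjusted p = 0.0266) or treated replicate 2 (0.0434), and that in TCCSUP without any 1 of its 4 libraries (0.0137 to 0.0634). HOXB5 fell in 253J only (-1.74 ± 0.47), with estimates of -1.41, -1.27 and -1.28 that were not called in J82, RT112 and TCCSUP. Its 253J call was lost without any 1 of the 4 libraries of that line (0.0104 to 0.0750). HOXB9 fell in 253J (-1.14 ± 0.30) and TCCSUP (-1.69 ± 0.29). In J82 and RT112 its estimates were 0.54 and 0.77 and were not called. The 253J call was lost without control replicate 3 (0.0380) or treated replicate 3 (0.0690). HOXB8 was called in no line.

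HOXB2 differed by line. In 253J it fell from 31.8 and 33.3 CPM to 6.02 and 3.71 CPM (-2.74 ± 0.39), and in TCCSUP from 7.16 and 8.04 CPM to 1.24 and 2.32 CPM (-2.10 ± 0.41). In J82 the counts were 0 and 0 in control and 9 and 13 with CM-1758, at least 3.42-fold higher against 3 counts per library, and the gene was called as rising. In RT112 it had 11 and 9 counts in control and 7 and 0 with CM-1758 and was not called. The TCCSUP call was lost without treated replicate 1 (adjusted p = 0.0139), and the J82 call without control replicate 1, control replicate 3 or treated replicate 3 (0.0223 to 0.0263).

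HOXB13, the posterior end of the cluster and a marker of the prostate lineage, went the other way. It rose in all 4 lines, the only member to do so, against 3.98% of all tested genes. It was at 2.39 and 2.87 CPM in control 253J and 6.06 and 4.52 CPM with CM-1758 (1.01 ± 0.28, adjusted p = 0.00736), and at 1.98 and 1.38 against 4.40 and 6.06 CPM in J82 (1.64 ± 0.29). In RT112 it was at 1.83 and 1.90 against 8.88 and 6.41 CPM (2.03 ± 0.29), and in TCCSUP at 3.68 and 3.71 against 10.8 and 9.25 CPM (1.44 ± 0.27). Treated libraries lay above control libraries in each line. The call in 253J was the weakest. It was lost without control replicate 2 (0.0663), control replicate 3 (0.0221) or treated replicate 1 (0.0711) of that line, and at 0.0103 to 0.0106 without 1 of 6 libraries of RT112 or TCCSUP (both RT112 controls and all 4 of TCCSUP).

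**Figure D4:**
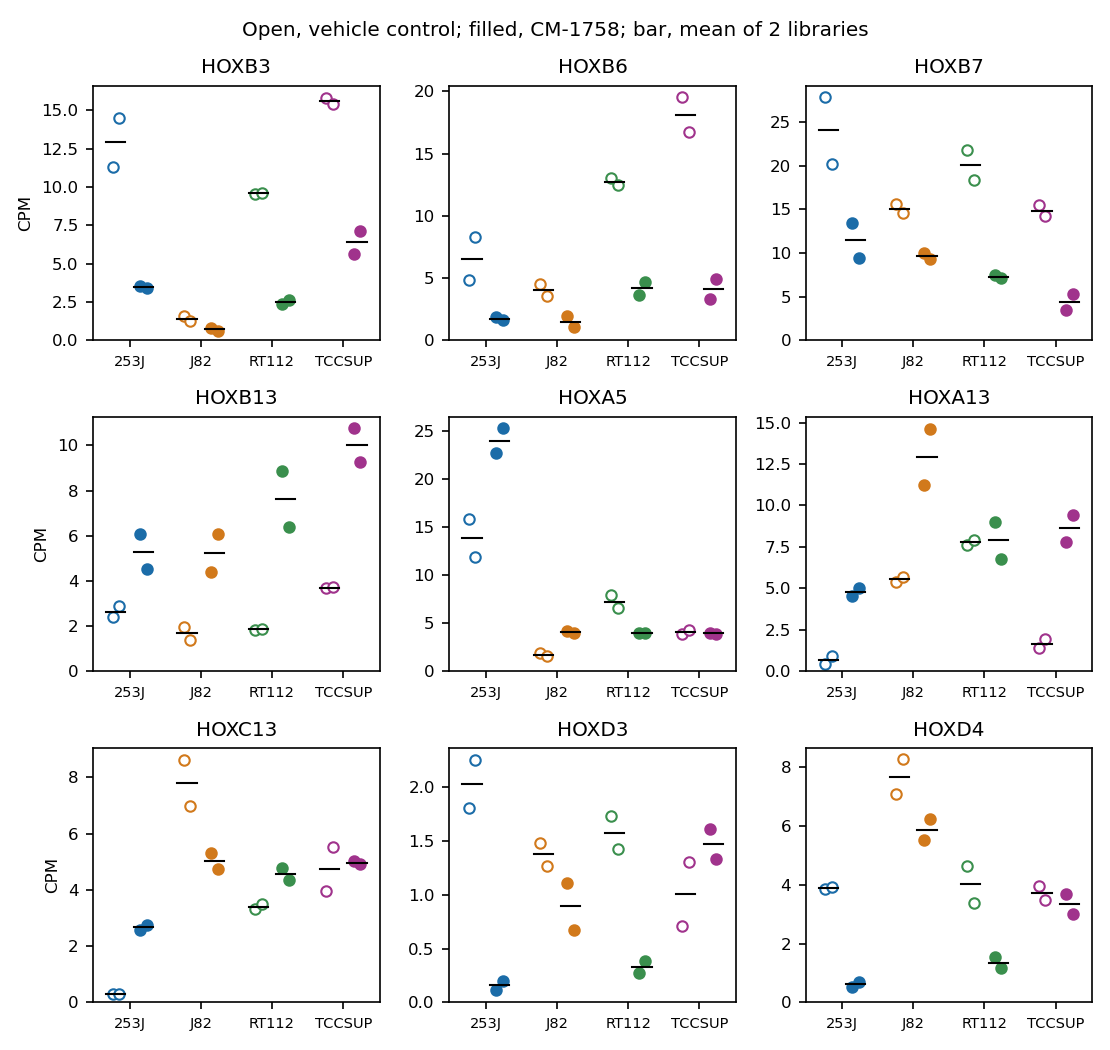
CPM of 9 HOX genes in every library (open, vehicle control; filled, CM-1758; bar, mean of 2 libraries), by cell line. HOXB3, HOXB6 and HOXB7 are lower and HOXB13 is higher with CM-1758 in each line, whereas HOXC13, HOXD3 and HOXD4 separate the groups widely in 253J.

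The other genes of paralog group 13, which lie at the same end of their clusters, were unevenly affected. Of the group's 4 genes, 2 rose in TCCSUP, 1 in RT112, 2 in J82 and 3 in 253J, and 0 fell in any line. Of all tested genes 23.7%, 20%, 17.4% and 21.4% rose in the same order, and with 4 genes the RT112 share of 25% is near it. HOXA13, needed for limb and urogenital development, was at 0.471 and 0.919 CPM in control 253J and 4.56 and 5.03 CPM with CM-1758 (2.79 ± 0.32, adjusted p = 4.77e-06). It was at 1.39 and 1.95 against 7.82 and 9.44 CPM in TCCSUP (2.37 ± 0.29) and at 5.39 and 5.71 against 11.2 and 14.6 CPM in J82 (1.22 ± 0.26). In RT112, the line with the highest control level, it was at 7.62 and 7.93 against 9.00025 and 6.79 CPM and was not called (0.02 ± 0.26). Only in RT112 did the groups overlap, and the response differed between the lines (adjusted p = 0.000181). The J82 call was lost without control replicate 1 (0.0106) or treated replicate 3 (0.0213).

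The HOXA13 promoter is shown because it is the member with the largest number of calls for which a sequence was at hand. It is the window upstream of the RefSeq start at chr7:27200107-27200341 of GRCh38.p14, minus strand, 235 bases, written 5′ to 3′ along the gene. Bases next to the start that GENCODE 29 assigns to a HOXA13 exon were left off. Capitals mark the CCAAT box (CCAAT or, on the other strand, ATTGG) and the GC box (GGGCGG or CCGCCC).
HOXA13: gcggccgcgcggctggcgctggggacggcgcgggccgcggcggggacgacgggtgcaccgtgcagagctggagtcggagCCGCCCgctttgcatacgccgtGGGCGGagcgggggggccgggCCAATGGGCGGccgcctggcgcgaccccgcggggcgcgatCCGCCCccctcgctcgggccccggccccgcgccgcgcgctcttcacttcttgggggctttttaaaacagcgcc

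HOXC13, a regulator of hair and nail keratins, rose in 253J alone. It was at 0.290 and 0.306 CPM in control and 2.57 and 2.77 CPM with CM-1758 (3.15 ± 0.32, adjusted p = 1.62e-06). The estimate was -0.64 ± 0.23 in J82 (8.62 and 6.98 against 5.30 and 4.74 CPM, adjusted p = 0.0401), 0.42 ± 0.24 in RT112 (3.30 and 3.49 against 4.77 and 4.35 CPM) and 0.07 ± 0.24 in TCCSUP (3.96 and 5.51 against 5.02 and 4.92 CPM). The 253J control libraries were the lowest of the 8 control libraries, and the 253J response differed from that of J82, RT112 and TCCSUP in turn (adjusted p = 7.72e-06, 0.000158 and 5.41e-05). HOXD13, required for digit formation, had at most 20 counts in any library and was called in no line.

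HOXD1, the anterior end of its cluster, had 0 and 0 counts in control TCCSUP and 19 and 7 with CM-1758, at least 4.22-fold higher against 3 counts per library. That call was lost without control replicate 1, control replicate 2 or treated replicate 1 (adjusted p = 0.0124 to 0.0151). Its estimates of 2.07 in 253J, 1.91 in J82 and 2.01 in RT112 had adjusted p-values of 0.0182 to 0.0229.

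HOXA5, a gene of lung development, rose in 253J, from 15.9 and 11.9 CPM to 22.7 and 25.2 CPM (0.79 ± 0.20), and in J82, from 1.90 and 1.60 CPM to 4.19 and 3.99 CPM (1.22 ± 0.23). It fell in RT112, from 7.94 and 6.57 CPM to 3.991 and 4.005 CPM (-0.86 ± 0.21), and was at 3.84 and 4.33 against 4.01 and 3.93 CPM in TCCSUP. Beside HOXB2 it was the only member that rose in one line and fell in another, against 7.38% of all tested genes. The call in 253J was lost without control replicate 3, treated replicate 1 or treated replicate 3 (0.0107 to 0.0571), and that in RT112 without control replicate 1, treated replicate 1 or treated replicate 2 (0.0225 to 0.0407). HOXA6, next to it, fell in RT112 from 2.94 and 2.64 CPM to 0.783 and 0.839 CPM (-1.78 ± 0.46). That call was lost without any 1 of the 4 libraries of the line (0.0157 to 0.0366). Its estimates of 0.57 in 253J and 1.30 in J82 were not called, nor was that of 0.00 in TCCSUP.

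HOXA10 fell in 253J, from 23.2 and 19.7 CPM to 9.82 and 6.88 CPM (-1.36 ± 0.27), and in TCCSUP, from 25.3 and 23.8 CPM to 11.3 and 12.3 CPM (-1.06 ± 0.27). J82 was at 6.38 and 10.1 against 6.19 and 4.33 CPM and was not called. Without treated replicate 3 the adjusted p in 253J was 0.0164, and the TCCSUP call was lost without any 1 of its 4 libraries (0.0181 to 0.0374). HOXA9 was at 42.9 and 30.3 against 21.1 and 12.4 CPM in 253J (-1.13 ± 0.38, adjusted p = 0.0229) and at 18.2 and 19.0 against 13.8 and 13.5 CPM in TCCSUP (-0.45 ± 0.38), and was called in no line. Its groups did not overlap in either. Of the remaining HOXA genes, HOXA4 fell in TCCSUP (25 and 23 against 3 and 5 counts, -2.57 ± 0.54, 0.0183 without treated replicate 1) and HOXA11 fell in RT112 (16 and 23 against 4 and 0 counts, -3.00 ± 0.79). The HOXA11 call was lost without control replicate 1, control replicate 2 or treated replicate 2 (0.0122 to 0.0571). HOXA2, HOXA3 and HOXA7 were called in no line.

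In the HOXD cluster, the neighbours HOXD3 and HOXD4 fell in the same lines. HOXD3 was at 1.81 and 2.26 CPM in control 253J and 0.119 and 0.202 CPM with CM-1758 (-3.60 ± 0.51, adjusted p = 3e-05), and at 1.73 and 1.42 against 0.274 and 0.381 CPM in RT112 (-2.25 ± 0.46). It was at 1.48 and 1.27 against 1.11 and 0.677 CPM in J82, and at 0.712 and 1.30 against 1.61 and 1.34 CPM in TCCSUP, neither called. HOXD4 was at 3.84 and 3.91 CPM in control 253J and 0.515 and 0.709 CPM with CM-1758 (-2.64 ± 0.31), and at 4.64 and 3.39 against 1.53 and 1.18 CPM in RT112 (-1.57 ± 0.28). It was at 7.07 and 8.25 against 5.51 and 6.23 CPM in J82 and at 3.96 and 3.48 against 3.67 and 2.99 CPM in TCCSUP. For both genes the treated libraries lay far below control in 253J and RT112, and the response differed between lines (adjusted p = 0.000467 for HOXD3 and 0.000387 for HOXD4). The HOXD3 call in RT112 was lost without treated replicate 1 (0.0166).

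HOXD8, the highest member of the cluster per kilobase in 253J at 8.33 CPM per kb, rose in TCCSUP from 2.37 and 2.07 CPM to 5.54 and 5.31 CPM (1.29 ± 0.33), a call lost without any 1 of its 4 libraries (0.0171 to 0.0400). It was at 2.70 and 5.02 against 6.84 and 9.48 CPM in J82 (adjusted p = 0.012), and the groups overlapped in 253J (12.4 and 11.6 against 12.6 and 11.8 CPM) and RT112 (6.93 and 3.999 against 7.90 and 5.57 CPM). HOXD9 to HOXD13 were called in no line.

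The upstream windows of HOXD3 and HOXD8 are shown as members of 1 cluster that fell and rose. Both are on the plus strand of GRCh38.p14, at chr2:176157057-176157306 (250 bases) and chr2:176129455-176129693 (239 bases, without the part in a HOXD8 exon), with capitals as above. HOXD8 holds none of the strings searched.
HOXD3: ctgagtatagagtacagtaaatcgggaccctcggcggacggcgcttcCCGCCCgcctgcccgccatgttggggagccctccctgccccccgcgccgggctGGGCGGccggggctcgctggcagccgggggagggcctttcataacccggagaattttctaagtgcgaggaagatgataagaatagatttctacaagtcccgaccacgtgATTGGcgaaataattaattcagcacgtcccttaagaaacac
HOXD8: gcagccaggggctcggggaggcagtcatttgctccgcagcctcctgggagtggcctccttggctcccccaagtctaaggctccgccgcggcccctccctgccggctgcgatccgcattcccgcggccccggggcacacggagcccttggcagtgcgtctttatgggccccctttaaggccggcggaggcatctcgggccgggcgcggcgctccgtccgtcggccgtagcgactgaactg

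A RefSeq window was at hand for 20 of the 39 genes, with 19 distinct sequences, since HOXC4 and HOXC5 share one. Of these 19 windows of 250 bases before the start, 16 held a CCAAT box (84.2%), against 33% of the 27305 windows of all genes. A GC box was in 10 (52.6%, against 42.3%) and a TATA box (TATAAA or TTTATA, which can overlap each other) in 4 (21.1%, against 11.1%). The median number of CpG was 21 in the HOX windows and 11 in all windows, and ran from 4 to 40 among the HOX windows. Exon bases were kept in these counts. Trimming as above left 0 bases for HOXA10 and HOXD4, each counted with a CCAAT box. It also removed the CCAAT box of HOXA7, HOXD1 and HOXD10. Identical windows were merged for the HOX genes but not for all genes. Of the HOXB genes, only HOXB1 had a window. The values are counts of letters and were not related to the response.

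The HOXC genes summed to 7.32 to 21.7 CPM per control library, the lowest of the 4 clusters in 253J, J82 and RT112 but not in TCCSUP. HOXC6 fell in 253J from 4.13 and 3.41 CPM to 0.911 and 0.506 CPM (-2.42 ± 0.52) and in TCCSUP from 3.52 and 3.64 CPM to 0.412 and 0.630 CPM (-2.77 ± 0.55). It was at 1.18 and 1.09 against 1.07 and 0.372 CPM in J82 and at 0.621 and 1.19 against 0.743 and 0.229 CPM in RT112. The calls were lost without 253J treated replicate 3 (0.0244) and without TCCSUP treated replicate 1 (0.0123). HOXC4, HOXC5 and HOXC6 share a first noncoding exon in some transcripts, so the split of reads between them is uncertain, and HOXC4 and HOXC5 were called in no line. HOXC10 rose in RT112, from 6 and 3 counts to 31 and 44 counts (3.23 ± 0.60, 0.01 without control replicate 2). HOXC11 had 15 and 9 counts in control RT112 and 0 and 0 with CM-1758, at least 3.43-fold lower against 3 counts per library, a call lost without control replicate 1, treated replicate 1 or treated replicate 2 (0.0112 to 0.0141). HOXC8, HOXC9 and HOXC12 were called in no line, as were 15 of the 38 tested members in all, against 30.8% of all tested genes.

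The response itself differed between lines for 11 of 38 members (F test of the interaction, adjusted p under 0.01), or 28.9%, against 36.6% of all tested genes. Among them were HOXA4, HOXA5, HOXA6, HOXA13, HOXB2, HOXB9, HOXC10, HOXC13, HOXD3 and HOXD4. The calls on HOXA4 and HOXA6 were lost without some 1 library, at up to 0.0189 without TCCSUP treated replicate 1 for HOXA4 and 0.0365 without RT112 treated replicate 1 for HOXA6, and those on the other 8 genes named held without any 1 library. Between pairs of lines the response differed for 7 members for 253J and RT112 (19.2% of all tested genes), 6 for 253J and J82 (19.1%), 4 for 253J and TCCSUP (17.9%), 4 for J82 and RT112 (12.7%), 4 for RT112 and TCCSUP (17.3%) and 3 for J82 and TCCSUP (12.6%).

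After CM-1758, 28 of the 38 members differed between the lines (73.7%, against 73.1% of all tested genes). The range between the highest and the lowest line mean, on the scale of log2(CPM + 0.5), was wider in control than with CM-1758 for 29 of the 38 members (76.3%, against 49.9% of all tested genes). Its median over the members was 2.06 in control and 1.41 with CM-1758, beside 1.17 and 1.27 over all tested genes. HOXC13 went from a range of 3.38 to 0.80 and HOXC6 from 1.60 to 0.31. For HOXC6 the 4 lines differed in control (adjusted p = 0.00191 in the edgeR F test) and were not called different with CM-1758 (0.715). Its response was not called different between lines (adjusted p = 0.0643 in the F test of the interaction). HOXD3 and HOXD4 went the other way, from 0.75 to 1.58 and from 0.95 to 2.52. The change in range was not tested, and the pseudocount holds down the range of low genes.

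Genes that act with or on the clusters were read in the same fits. Among all tested genes, calls in either direction made up 39.5% for 253J, 30.7% for J82, 34.7% for RT112 and 40.9% for TCCSUP. Of 8 tested PBX, MEIS and PKNOX genes, 3 rose and 4 fell in 253J, 4 and 2 in J82, 2 and 1 in RT112, and 1 and 3 in TCCSUP, with the RT112 share near the background. Chosen after their values were seen, the MEIS genes and EZH2 are given here. MEIS1 rose in 253J (0.73), J82 (1.18) and TCCSUP (1.89), MEIS2 fell in 253J (-1.54), J82 (-0.68) and TCCSUP (-1.58), and MEIS3 rose in 253J (1.51), J82 (2.00) and RT112, there from 0.229 and 0 CPM to 15.8 and 11.9 CPM. Of 18 polycomb and trithorax regulators, 3 rose and 1 fell in 253J, 4 and 2 in J82, 5 and 1 in RT112, and 5 and 1 in TCCSUP. These shares were below the background in 253J and TCCSUP and near it in J82 and RT112. EZH2, the methyltransferase of the polycomb complex, fell in 253J (-0.89) and was called in no other line.

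Of 13 tested noncoding RNA genes inside the clusters, 2 rose and 3 fell in 253J, 1 and 1 in J82, 0 and 4 in RT112, and 2 and 2 in TCCSUP. In either direction these shares were near or below the same background in each line. By direction, 30.8% fell in RT112 against 14.7% of all tested genes, and 0 rose against 20%. The shares that fell in 253J, J82 and TCCSUP were 23.1%, 7.69% and 15.4%, against 18.1%, 13.3% and 17.2%. HOTAIRM1, transcribed from within the HOXA cluster and named here after its values were seen, was called in the same lines and directions as HOXA5. It rose in 253J (8.08 and 9.04 against 15.01 and 21.8 CPM) and J82 (5.36 and 5.49 against 12.8 and 16.1 CPM), and fell in RT112 (15.9 and 17.1 against 6.03 and 4.81 CPM). HOXC13-AS, also named after its values were seen, fell in 3 lines, whereas HOXC13 was called as falling in none. The strand setting of the counting is not given in the sources used here, so reads of an antisense RNA and of the gene opposite it cannot be told apart. Of 10 tested genes that flank the clusters, 4 rose and 2 fell in 253J, 3 and 0 in J82, 2 and 3 in RT112, and 3 and 1 in TCCSUP, which is near the background in J82 and TCCSUP and above it in 253J and RT112. CALCOCO1, beside the HOXC cluster, was the only one called in the same direction in every line, with log2 fold changes of 1.99 in TCCSUP, 2.35 in RT112, 2.49 in J82 and 3.24 in 253J. The ParaHox genes CDX2, GSX2 and PDX1, homeobox relatives outside the clusters, were called 1, 2, 0 and 3 times in 253J, J82, RT112 and TCCSUP, each time upward.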

How the data were processed

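RNA of 4 bladder cancer cell lines was sequenced by the study from stranded total RNA libraries depleted of ribosomal RNA. The authors deposited raw read counts per gene symbol, not normalized. Their processing notes list HISAT2, StringTie and GRCh37 without role or version. The HOX genes, the related lists and the tests were chosen with earlier results of these data known. Columns were matched to samples by their labels. Counts were filtered with filterByExpr over the 8 groups (21297 genes), normalized by TMM and fitted with edgeR 4.0.16 (R 4.3.3), 1 contrast per line, with Benjamini-Hochberg adjustment over all tested genes. Calls needed an adjusted p under 0.01. The SE is the log2 fold change over the square root of F. Replicates are described as independent, and p-values measure the spread between them, borrowed across genes (8 residual degrees of freedom). A count of 3 per library was the floor, and it covers counting error only. Members printed per library were those called in all 4 lines, the 3 largest rises and falls in each line (mean of at least 1 CPM, no overlap) and the highest CPM in control per cluster and line, and members called outside this rule are given too. The values of 1 member are not reported here, although it is in the counts, sums and medians. Related genes were named where called alike in all 4 lines, and others are said to be chosen after their values were seen or are all the tested genes of a list. Transcript lengths are medians from GENCODE 29, and promoters are from RefSeq. On simulated counts for 253J, 71 of 100 genes changed 3-fold and 92 of 100 changed 8-fold were recovered, and 3 of the other genes of 21297 were called. The changed genes were drawn from those above 1 CPM on average, so these rates do not cover members below that level. They were also few beside the 39.5% of tested genes called in 253J. The alternatives were RLE factors, library size only, small noncoding RNA genes left out, DESeq2 1.42.0, each line alone, other filters and limits, a replicate block and leaving out each library.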

Additional observations from a re-analysis of the deposited data

Results flagged for a closer look

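The response to CM-1758 differed between the 4 lines for 7 of the genes given per library (edgeR F test of the interaction, Benjamini-Hochberg adjusted over all tested genes). The adjusted p was 2.04e-05 for HOXC13, which rose in 253J only, and 0.000181 for HOXA13, which rose in 253J, J82 and TCCSUP. It was 0.000208 for HOXA5 and 0.000842 for HOXB2, which rose in one line or more and fell in others, 0.000387 for HOXD4 and 0.000467 for HOXD3, which fell in 253J and RT112, and 0.00800 for HOXA6, which fell in RT112.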

How the results depend on the processing

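Of the 60 fold changes of genes given per library, 0 changed direction while called under the alternatives that gave a value. The filter of at least 10 counts and the fits of each line alone gave none for some of them. With 2 libraries per group, members near the floor of 3 counts cannot be resolved. Library size in place of TMM raised the median of all genes by 0.272, 0.145, 0.148 and 0.311 (log2) in 253J, J82, RT112 and TCCSUP, and the member medians were then -0.42 in 253J, -0.24 in J82 and -0.12 in TCCSUP. At least 10 counts in every library left 12 members, of which 6, 6 and 5 fell in 253J, RT112 and TCCSUP and 1 rose in RT112, 12 differed in control, 11 with CM-1758 and 5 in response, with medians of 0.46 in J82 and -0.034 in TCCSUP. With no filter the 253J median was -0.29, with HOXB1 included. With each line alone it was -1.15, and in J82 0 fell and 3 rose. An adjusted p under 0.05 gave 5 falls in J82. Adding a limit of 2 on the log2 fold change left 4, 0, 3 and 4 falls and 3 and 2 rises in 253J and J82 and 2 rises in TCCSUP. The deviations of same-numbered libraries gave little sign of pairing in 253J, RT112 and TCCSUP (r = 0.136, 0.0901 and 0.0573) and correlated more in J82 (0.403). Replicates also differed most in J82. Chi-square per degree of freedom was 74.4 in its control and 50.3 in its treated group, against 11.8 to 22.3 in the other groups. With the replicate block, 3 rose in 253J (median -0.48), 2 fell in J82 and 7 differed in response, and 41 of 47 calls held. In 253J only replicate 3 had a library in both groups, so the 253J results with the block rest on 1 control and 1 treated library. Calls lost included HOXB13, HOXB5 and HOXC6 in 253J. HOXA11 in RT112 (edgeR, adjusted p = 0.0117) and HOXB4 in TCCSUP (0.0109) were lost too. HOXB13 was thus called in 3 lines with the block. DESeq2 kept 46 of them. Leaving out 1 library gave 6 to 12 falls in 253J, 0 to 2 in J82, 5 to 10 in RT112 and 4 to 10 in TCCSUP, and 3 to 5, 3 to 6, 1 to 2 and 2 to 4 rises. It gave 27 to 31 members that differed in control, 24 to 29 with CM-1758 and 8 to 11 in response, and medians of -0.69 to -0.24, -0.38 to 0, -0.86 to -0.62 and -0.64 to -0.25. Leaving out a library of another line moved the 253J median too, since HOXB1 then passed the filter, except without RT112 control replicate 2.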
